A study of Mus musculus with 2 samples.

Results

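DNA methylation was read at CpG cytosines in and around 8 genes for transcription factors of the hepatocyte: Hnf4a, Foxa1, Foxa2, Foxa3, Cebpa, Cebpb, Onecut1 and Prox1. A cytosine was included when it lay inside the RefSeq span of a gene or within 10 kb on either side in mm10, and had at least 5 reads in both libraries. That rule found 2192 of 2466496 autosomal cytosines with such coverage, from 123 at Prox1 to 359 at Cebpb, and both strands of a CpG counted apart. Both libraries were made from liver of CD-1 mice, an outbred stock, at an age of 12 weeks: the fasted library after 12 hr without food, and the control library from untreated mice. The study compared liver methylation between these states. The labels name no mutation or transgene, and how many animals went into each library is not given. With 1 library per group there is no spread between replicates, and a test on reads sets these libraries, not the conditions, against each other.

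Methylation was assayed by reduced representation bisulfite sequencing, in which fragments cut at restriction sites, mostly from CpG-rich DNA, are read. Bisulfite turns unmethylated cytosine into a base read as T, whereas methylated and hydroxymethylated cytosine both stay C and are not told apart. A level is the percent of reads at a cytosine that kept C, and a level of a region is the mean over its cytosines unless pooled reads are named. In whole liver a level between 0 and 100% can come from a mixture of cell types, of cells of 1 type or of alleles, and these cannot be told apart. Median coverage of the cytosines at the 8 genes was 17 reads in both libraries.

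Hepatocytes keep their identity through a small circle of transcription factors that bind one another's promoters and the enhancers of liver genes. HNF4A is a nuclear receptor at its centre, the FOXA proteins are winged-helix factors that open compacted chromatin, and C/EBP proteins are leucine-zipper factors that turn on metabolic and acute-phase genes. ONECUT1 and PROX1 are homeodomain factors of the developing liver that stay on in the adult. Active promoters with many CpGs are typically free of methylation, whereas promoters with few CpGs often carry tissue-dependent methylation. The Hnf4a gene has a promoter used in the adult liver, P1, and one far upstream known for use in the fetal liver and the pancreas, P2.

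The sequences upstream of the starts differed in CpG content, and those of Hnf4a and Cebpa are shown because they contrast CpG-poor with CpG-rich starts. Each is the 250 bases before an annotated start, from RefSeq in GRCm38.p6, the assembly named mm10, with CpG dinucleotides in capitals. Hnf4a P1 is at chr2:163546905-163547154 and Hnf4a P2 at chr2:163506607-163506856, both on the plus strand, and Cebpa is at chr7:35119043-35119292, also on the plus strand.
Hnf4a P1: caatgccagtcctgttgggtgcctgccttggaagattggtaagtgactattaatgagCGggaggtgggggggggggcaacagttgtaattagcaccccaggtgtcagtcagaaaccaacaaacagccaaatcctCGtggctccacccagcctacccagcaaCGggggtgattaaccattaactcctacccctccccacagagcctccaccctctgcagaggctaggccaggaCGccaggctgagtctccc
Hnf4a P2: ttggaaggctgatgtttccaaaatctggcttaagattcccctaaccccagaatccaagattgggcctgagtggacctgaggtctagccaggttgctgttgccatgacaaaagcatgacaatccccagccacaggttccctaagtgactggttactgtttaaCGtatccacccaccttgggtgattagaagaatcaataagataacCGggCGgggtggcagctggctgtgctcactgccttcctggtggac
Cebpa: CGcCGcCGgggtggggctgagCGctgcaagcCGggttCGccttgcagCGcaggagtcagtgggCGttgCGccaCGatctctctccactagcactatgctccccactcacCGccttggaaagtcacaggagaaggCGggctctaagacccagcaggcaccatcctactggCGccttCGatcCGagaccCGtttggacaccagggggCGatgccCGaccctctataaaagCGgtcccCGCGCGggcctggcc
These stretches hold 4 CpGs at P1, 3 at P2 and 22 at Cebpa. None of the 4 CpGs at P1 was read, 2 of the 3 at P2 were read at a mean of 15% in the fasted and 18.9% in the control library, and 16 of the 22 at Cebpa were read at 1.01% in the fasted and 0.309% in the control library.

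All 8 genes matched the RefSeq promoter table, with 12 starts in all, and each promoter there runs from 250 bases before to 50 bases after the start. Over these 300 bases both Hnf4a promoters hold 4 CpGs, and 23.1% of 20085 promoters of autosomal protein-coding genes hold fewer. The Cebpb promoter holds 50, more than 98.9% of promoters, the Onecut1 promoter 38, and the other 8 starts between 12 and 29. The letters ATCAAT, bound by ONECUT factors, occurred in the P2 promoter at position -59 from the start and in the first Foxa2 promoter at -213, and are present on either strand in 6.39% of promoters. The letters GTTAAT, part of an HNF1 site, occurred in the P1 promoter at -81 and -74 and in the third Foxa2 promoter at -176, against 6.23% of promoters with any match. The FOX letters TGTTTAC were found at -141 in the Foxa1 promoter, against 3.04% of promoters. The C/EBP letters TTGCNNAA and the HNF4 letters CAAAGTCCA were not found in any of the 12. TATAAA was found at -30 in the Cebpa, -36 in the Foxa3 and -34 in the first Prox1 promoter, at -208 in the third Foxa2 promoter and at 21 in the Cebpb promoter, against 12.7% of promoters. Each search covered both strands, a match is a description of letters only, and the ATCAAT and GTTAAT matches did not overlap.

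Start regions, taken from 1000 bp before to 500 bp after each start, were nearly free of methylation at 7 of the 8 genes. Most genes share this: of all 12881 start regions, 85.4% were below 10% in the control library, where the median was 1.07%. Over the first starts of those 7 genes, levels lay between 0.251 and 3.22% in the fasted library and between 0.504 and 6.05% in the control library. The Hnf4a starts stood apart in level. P2 stood at 29.4% in the fasted and 33.0% in the control library over 8 cytosines. Of these, the 5 inside the promoter averaged 18.5% in the fasted and 21.3% in the control library. The other 3, past the promoter, averaged 47.6% in the fasted and 52.4% in the control library. P1 stood at 15.9% in the fasted and 17.9% in the control library over 7 cytosines, all 113 bp or more past the start. From pooled reads P2 stood at 25.4% (95% exact interval 19.5 to 32.1) in the fasted library and 30.5% (24.0 to 37.6) in the control library. P1 stood at 16.6% (12.0 to 22.1) in the fasted library and 18.5% (13.8 to 24.1) in the control library. The intervals of P2 overlap between the libraries, and so do those of P1. Intervals cover counting error only and are too narrow, since PCR reads are not independent molecules and neighbouring cytosines share them.

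**Figure D1:**
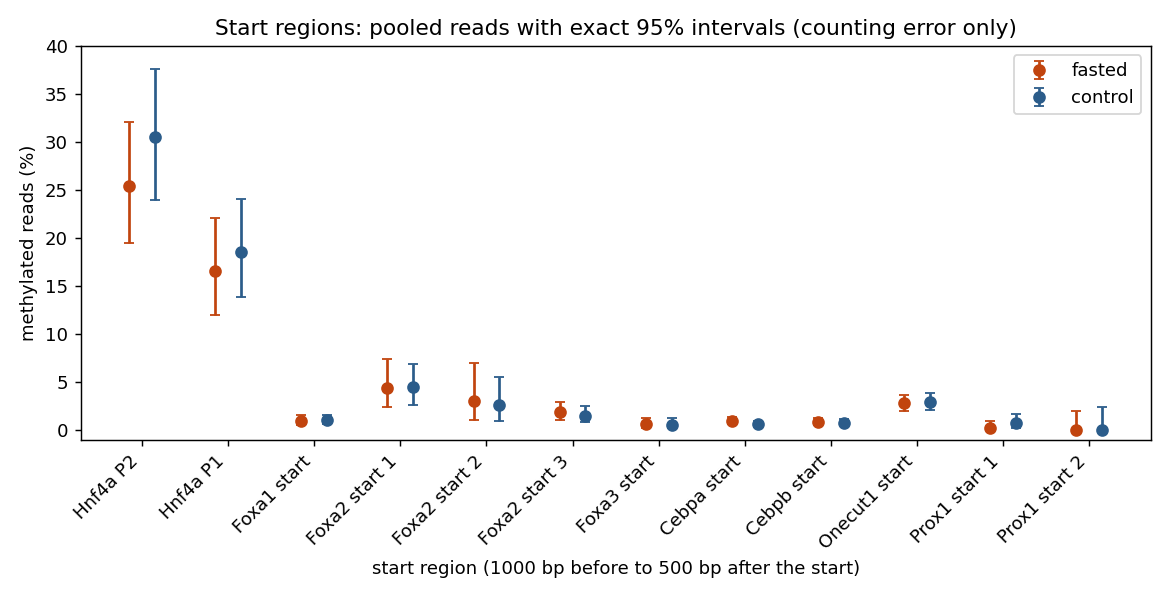
Percent of methylated reads, pooled over the cytosines of each start region, for the 12 annotated starts of the 8 genes in the fasted (red, left of each pair) and control (blue, right) library. Bars are exact 95% intervals for counting error. Hnf4a P2 stood at 25.4% in the fasted and 30.5% in the control library, P1 at 16.6% in the fasted and 18.5% in the control library, and every other start was below 5% in both libraries.

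The level of the Hnf4a starts is best read against promoters with as few CpGs. Start regions whose promoter holds 0 to 5 CpGs had a median level of 40% in the fasted and 41.2% in the control library over 763 starts, so both Hnf4a starts were below the median of their class. Start regions with 21 or more CpGs, a class that holds 7 of the 12 starts described here, had a median of 0.799% in the fasted and 0.743% in the control library over 6850 starts. Measured against all starts, the mean level of P2 was above 91.6% and that of P1 above 88.9% of them. Prox1 lay at the other end, with 0% of 182 reads in the fasted and 0% of 156 reads in the control library at its second start, which by the upper bounds of the exact intervals allows up to 2.01% in the fasted and 2.34% in the control library. None of the 12 start regions was called by the two-sided Fisher's exact test on summed reads, where a call needed 10 points of difference and an adjusted p (Benjamini-Hochberg) below 0.05. Over all 12881 start regions 0.784% were called. Nor was any body or flank of the 8 genes called, where the start region is left out of body and flanks. Over all protein-coding genes 1.21% of bodies, 1.88% of upstream flanks and 1.51% of downstream flanks were called.

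Hnf4a had the highest level of the 8 genes and the most varied profile. Over its span and flanks (chromosome 2, 163506811 to 163572907, plus strand) the 134 cytosines averaged 59.0% in the fasted and 59.6% in the control library, a difference of -0.596 points (adjusted p = 0.733, Fisher's exact test). Just after P1, 12 cytosines from 113 to 561 bp past the start averaged 12.1% in the fasted and 14.4% in the control library. Only about 1 kb before P1, 10 cytosines at -1294 to -1226 bp averaged 97.6% in the fasted and 96.3% in the control library, so the level changed steeply in both. The level was low again upstream of that, where 8 cytosines at -8266 to -5002 bp from P1 averaged 17.6% in the fasted and 11.8% in the control library. They lie on both sides of the higher end of the antisense transcript gene Hnf4aos, at -5434 bp from P1. The level of each of these 8 cytosines lay between 5.0 and 37.5% in the fasted library and between 3.85 and 20% in the control library. Of the 8, 7 were higher in the fasted library and no window there was called.

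Between P2 and those cytosines the measured parts of Hnf4a were mostly methylated, and no cytosine was measured from 7196 to 21950 bp past P2. From 2899 to 7196 bp past P2, 14 cytosines averaged 74.7% in the fasted and 82.6% in the control library. From 21950 to 24445 bp, 7 cytosines averaged 82.9% in the fasted and 83.2% in the control library. A partly methylated patch of 8 cytosines interrupted this, at 26616 to 26689 bp past P2, with 25.8% in the fasted and 31.3% in the control library. In that patch 1 cytosine stood at 10.5% of 38 reads in the fasted and 36.8% of 38 reads in the control library (position 163533519, p = 0.0137, adjusted p = 1.0, Fisher's exact test). Another stood at 21.1% of 19 reads in the fasted and 47.4% of 19 reads in the control library (position 163533546). Both lie on the minus strand, and 4 of the 8 cytosines of the patch were lower and 4 higher. Past P1 the cytosines measured out to 12440 bp were low too, and 10 of them from 2868 bp on averaged 21.9% in the fasted and 18.2% in the control library. Only 1 window of 1000 bp among these 10 had at least 3 cytosines, 6 near 3345 bp, so most of that part was not read. The 3 prime part of the gene, 34 cytosines from 15857 to 23710 bp past P1, averaged 77.2% in the fasted and 75.6% in the control library. Single positions were described only where both libraries had 10 reads or more, here and at the other genes. The most positive differences at Hnf4a were 83.3% of 12 reads in the fasted against 54.5% of 11 reads in the control library at position 163531302, and 65.5% of 29 in the fasted against 41.2% of 17 in the control library at position 163496916.

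**Figure D2:**
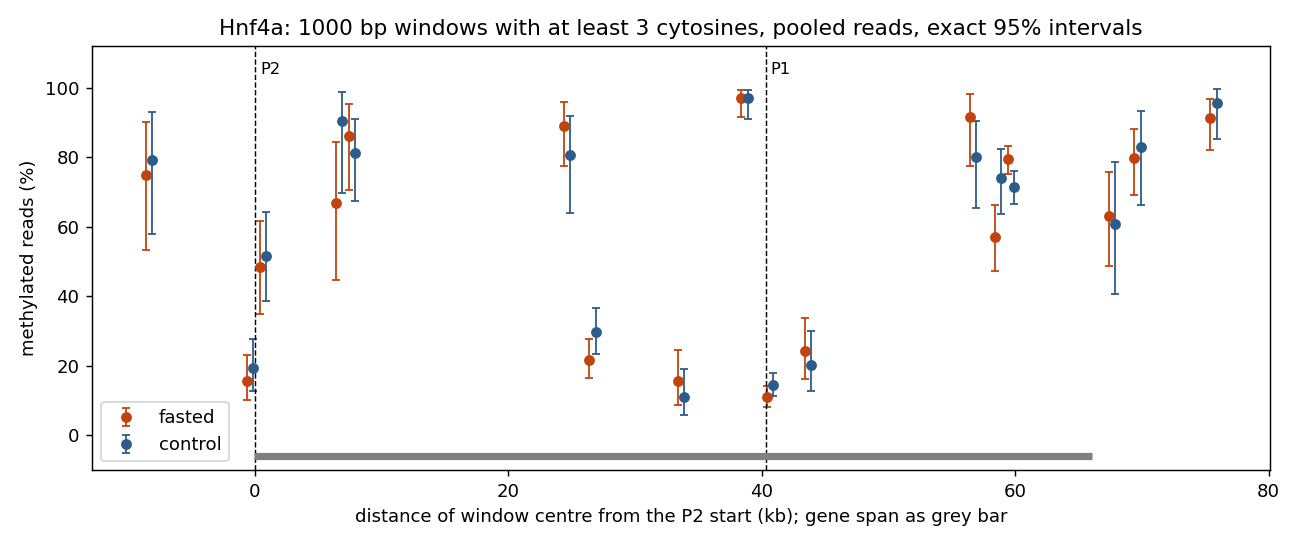
Percent of methylated reads in 1000 bp windows across Hnf4a against distance from the P2 start in kb, fasted (red) and control (blue, drawn to the right), with exact 95% intervals for counting error. The window just after P1 stood at 11% in the fasted and 14.5% in the control library, after a window at 97.1% in the fasted and 96.9% in the control library, and none of the 17 windows was called.

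The FOXA genes were low at their starts, and Foxa1 and Foxa2 also over their bodies, whereas the body of Foxa3 was partly methylated. Foxa1, which with Foxa2 is needed for the liver to form in mice, averaged 10.5% in the fasted and 9.30% in the control library over 342 cytosines (chromosome 12, 57540628 to 57548029, minus strand), a span that reaches upstream of the start in the promoter table. Its start region stood at 0.740% in the fasted and 0.777% in the control library. From -910 to 805 bp, 115 cytosines formed 1 low stretch at 0.709% in the fasted and 1.17% in the control library. A low stretch was defined as 5 or more neighbouring cytosines below 20% in the mean of both libraries with gaps of at most 1000 bp, and a high one as above 80%. Foxa1 had 5 low stretches and 0 high ones, and between its low stretches 12 cytosines at 10645 to 10734 bp stood at 48.2% in the fasted and 52.1% in the control library. The most positive differences at Foxa1 were at positions 57543139, with 26.3% of 19 reads in the fasted and 4.76% of 21 in the control library, and 57543136, with 15.8% of 19 in the fasted and 0% of 21 in the control library.

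Both called windows of the 8 genes lay upstream of Foxa1, inside the divergent gene Ttc6, whose span begins at -593 bp from the Foxa1 start. The window centred at -4389 bp (chromosome 12, 57550001 to 57551000) rose to 65.1% in the fasted library, against 32.8% in the control library, over 24 cytosines (adjusted p = 2.13e-05, two-sided Fisher's exact test on summed reads). Of the 24, 19 were higher and 5 lower in the fasted library. Coverage there was thin, with 5 to 12 reads per cytosine in the fasted and 7 to 16 in the control library. The strands differed: the mean difference was 47.2 points over the 12 plus-strand cytosines, read 5 or 6 times each in the fasted library, and 17.2 points over the 12 minus-strand ones. The call was kept when every read count was halved, which does not remove the sharing of reads between neighbouring cytosines. In windows of 500 bp it held for 57550001 to 57550500, with 11 cytosines, and not for the rest. It was also kept with 20 points or 5 cytosines required, minima that its 32.2 points and 24 cytosines already met. The same test was also run on reads divided by the number of cytosines in the window, which allows for shared molecules. There the exact test lost the call (adjusted p = 1.0), but it called only 1 of 206284 windows anywhere, so this loss says little. With at least 10 reads per cytosine the window could not be measured.

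The window centred at -2389 bp from the Foxa1 start (chromosome 12, 57548001 to 57549000) fell to 33.8% in the fasted library, against 44.4% in the control library, over 17 cytosines (adjusted p = 0.0493, Fisher's exact test). Of these, 14 were lower and 2 higher. They lie at 57548346 to 57548585, just past the upstream end of the RefSeq span of Foxa1 at 57548029. This window was read more deeply, with 10 to 68 reads in the fasted and 9 to 34 in the control library. The cytosine with the widest gap stood at 26.1% of 46 reads in the fasted and 58.6% of 29 reads in the control library (position 57548544, plus strand). Its partner on the minus strand stood at 32.4% of 68 reads in the fasted and 52.9% of 34 reads in the control library. The next, at position 57548585, stood at 38.1% of 21 reads in the fasted and 60.0% of 10 reads in the control library. The call was lost in the exact test when every read count was halved (adjusted p = 0.911) and when the reads were divided as above (adjusted p = 1.0). In all, 2 of 105 windows at the 8 genes were called, or 1.90%, which is near the 1.43% of all 206284 autosomal windows. Of those windows 0.759% were called higher and 0.676% lower, against 1 of each at the 8 genes.

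**Figure D3:**
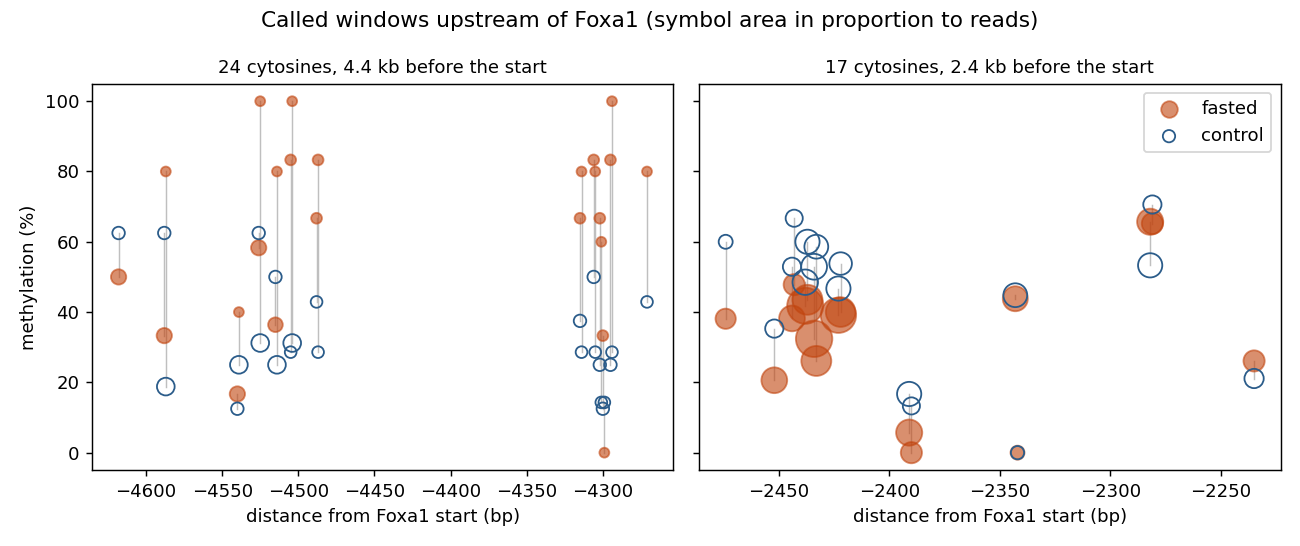
Methylation of single cytosines in the windows upstream of Foxa1 that were called, against distance from the start in bp, fasted (red, filled) and control (blue, open), with symbol area in proportion to reads. On the left 19 of 24 cytosines were higher in the fasted library with at most 12 reads each, and on the right 14 of 17 were lower.

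Both windows lie in the upstream flank of Foxa1, whose difference changed sign with the weighting of cytosines and with the coverage minimum. Its 47 cytosines averaged 52.3% in the fasted and 40.7% in the control library, whereas pooled reads gave 40.8% in the fasted and 41.9% in the control library, with an adjusted p of 0.969 in Fisher's exact test. With at least 10 reads in both libraries only 17 cytosines were left, and the flank was called lower, at 35.1% in the fasted and 45.7% in the control library (adjusted p = 0.0207, Fisher's exact test). In that setting 1 of 31 regions of the 8 genes was called, against 1.41% of 36961 starts, bodies and flanks over all genes.

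Foxa2, a FOXA gene of early endoderm, averaged 5.22% in the fasted and 4.29% in the control library over 327 cytosines (chromosome 2, 148042877 to 148046969, minus strand). The difference of 0.936 points passed the test on reads (adjusted p = 0.00319, Fisher's exact test) but not the required 5 points. The pass was lost at equal depth (adjusted p = 0.682, exact test), with at least 20 reads per cytosine (adjusted p = 0.0731) and with flanks of 5000 bp, where the difference was 0.220 points (adjusted p = 0.537). The gene body stood at 3.99% in the fasted and 2.14% in the control library, where 50 of 130 cytosines were higher and 26 were lower, and Fisher's exact test gave an adjusted p of 0.0222. In the 3 prime part, 27 cytosines at 2939 to 3083 bp past the first start averaged 11% in the fasted and 4.93% in the control library, with 20 higher and 4 lower. The highest of them stood at 43.8% of 16 reads in the fasted and 13.3% of 30 reads in the control library (position 148043904). The window holding part of them stood at 13.8% in the fasted and 5.91% in the control library. It had an adjusted p of 0.0287 in Fisher's exact test and a difference under the required 10 points. Downstream, position 148035683 stood at 88.2% of 34 reads in the fasted and 53.8% of 26 reads in the control library, in a group of 9 cytosines at 61.9% in the fasted and 45.5% in the control library. Its 3 starts stood at 3.22, 1.68 and 1.59% in the fasted and 6.05, 2.55 and 1.71% in the control library, and no start differed by 10 points. The most negative differences at Foxa2 were 0% of 14 reads in the fasted against 18.2% of 11 in the control library at position 148040108, and 3.70% of 27 in the fasted against 16.7% of 18 in the control library at 148045012.

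Foxa3, the FOXA gene tied to glucose supply in long fasts in mice, averaged 17.5% in the fasted and 18.6% in the control library over 354 cytosines (chromosome 7, 19013283 to 19023539, minus strand). The Foxa3 start shares a low stretch with the divergent gene Sympk, whose span begins at -838 bp. That stretch of 100 cytosines, from -1493 to 1170 bp, stood at 1.56% in both libraries. The body was higher, at 34.1% in the fasted and 36.8% in the control library, with 24.9% of pooled reads in the fasted and 30.2% in the control library (adjusted p = 0.0596, Fisher's exact test). Downstream the flank holds Irf2bp1, a short gene on the opposite strand. There 88 cytosines from 18563 to 20229 bp, over its start, stood at 0.915% in the fasted and 1.46% in the control library. Inside it 68 cytosines at 17508 to 18489 bp stood at 37.1% in the fasted and 38.3% in the control library. The widest gaps at Foxa3 lay there too: 28.0% of 25 reads in the fasted and 66.7% of 18 reads in the control library at position 19005147, and 70.0% of 10 reads in the fasted and 30.8% of 13 in the control library at position 19005317. Further wide gaps were at positions 19008517, with 0% of 14 reads in the fasted and 36.4% of 11 in the control library, and 19005880, with 37.5% of 16 in the fasted and 10% of 10 in the control library. They point in both directions, and none passed adjustment.

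The C/EBP genes, each a single exon, were below 5% in both libraries. Cebpa, which maintains gluconeogenic and urea cycle genes, averaged 4.35% in the fasted and 4.37% in the control library over 311 cytosines (chromosome 7, 35119293 to 35121928, plus strand). From -1348 to 1465 bp, 279 cytosines formed 1 stretch at 0.522% in the fasted and 0.473% in the control library. A methylated group of 10 cytosines at -6957 to -6229 bp stood at 91.9% in the fasted and 87.9% in the control library. The widest gap was at position 35115926, with 23.1% of 13 reads in the fasted and 58.3% of 12 reads in the control library, followed by position 35123640, with 9.09% of 44 in the fasted and 28.6% of 35 in the control library. The most positive differences at Cebpa were 9.52% of 42 reads in the fasted against 0% of 30 in the control library at position 35119592, and 9.09% of 11 in the fasted against 0% of 12 in the control library at position 35119050.

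Cebpb, the C/EBP gene induced by cAMP and in the acute phase, averaged 3.83% in the fasted and 4.19% in the control library over 359 cytosines (chromosome 2, 167688915 to 167690432, plus strand). Its low stretch from -880 to 1444 bp held 314 cytosines at 0.511% in the fasted and 0.491% in the control library. The level was higher downstream, inside the lncRNA gene A530013C23Rik, where 14 cytosines at 6616 to 7874 bp stood at 48.2% in the fasted and 59.9% in the control library, 12 of them lower. The widest of these gaps were 27.3% of 33 reads in the fasted against 50% of 20 reads in the control library at position 167695641, and 56.5% of 23 in the fasted against 78.6% of 14 in the control library at position 167696513. Both windows there had adjusted p of 0.655 and 0.513 in Fisher's exact test. The most positive differences at Cebpb were 13.3% of 15 reads in the fasted against 0% of 10 reads in the control library, at positions 167692421 and 167692506.

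Onecut1, also known as Hnf6, averaged 13.2% in the fasted and 13.4% in the control library over 242 cytosines (chromosome 9, 74861921 to 74889648, plus strand). Its low stretch began close to the start and ran into the gene, from -467 to 3358 bp, with 129 cytosines at 1.8% in the fasted and 2.11% in the control library. Upstream, 41 cytosines at -7938 to -1086 bp stood at 46.5% in the fasted and 48.1% in the control library, so the low stretch lay mostly on the gene side. Near 6.9 kb a short run of 8 cytosines stood at 17.7% in the fasted and 6.01% in the control library, in a window with 11.4% in the fasted and 5.83% in the control library and an adjusted p of 0.0628 by Fisher's exact test. The widest gaps were 66.7% of 18 reads in the fasted against 35.7% of 14 reads in the control library at position 74857837, and, close by, 36.4% of 11 in the fasted against 66.7% of 12 in the control library at position 74857812. Others were at position 74853983, with 13.3% of 15 reads in the fasted and 43.8% of 16 in the control library, and at 74869003, with 30.8% of 13 in the fasted and 7.69% of 13 in the control library.

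Prox1, which hepatocyte precursors and lymphatic endothelium both need, averaged 30.4% in the fasted and 31.7% in the control library over 123 cytosines (chromosome 1, 190118035 to 190170827, minus strand). It divided into a low and a methylated part in both libraries, with no cytosine measured between 1357 and 8519 bp. A low stretch of 65 cytosines across both starts, from -2631 to 1357 bp, stood at 1.01% in the fasted and 1.27% in the control library. From 8519 bp on, 47 cytosines of the body stood at 68.3% in the fasted and 70.9% in the control library. In that body position 190139299 stood at 36.4% of 22 reads in the fasted and 75% of 24 reads in the control library, and position 190160872 at 72.7% of 11 in the fasted and 100% of 11 in the control library. Position 190137262 was higher, at 57.1% of 14 reads in the fasted and 27.3% of 11 reads in the control library, as was 190162280, at 57.1% of 14 in the fasted and 38.9% of 18 in the control library. No window of Prox1 was called, and its downstream flank had too few cytosines to test.

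**Figure D4:**
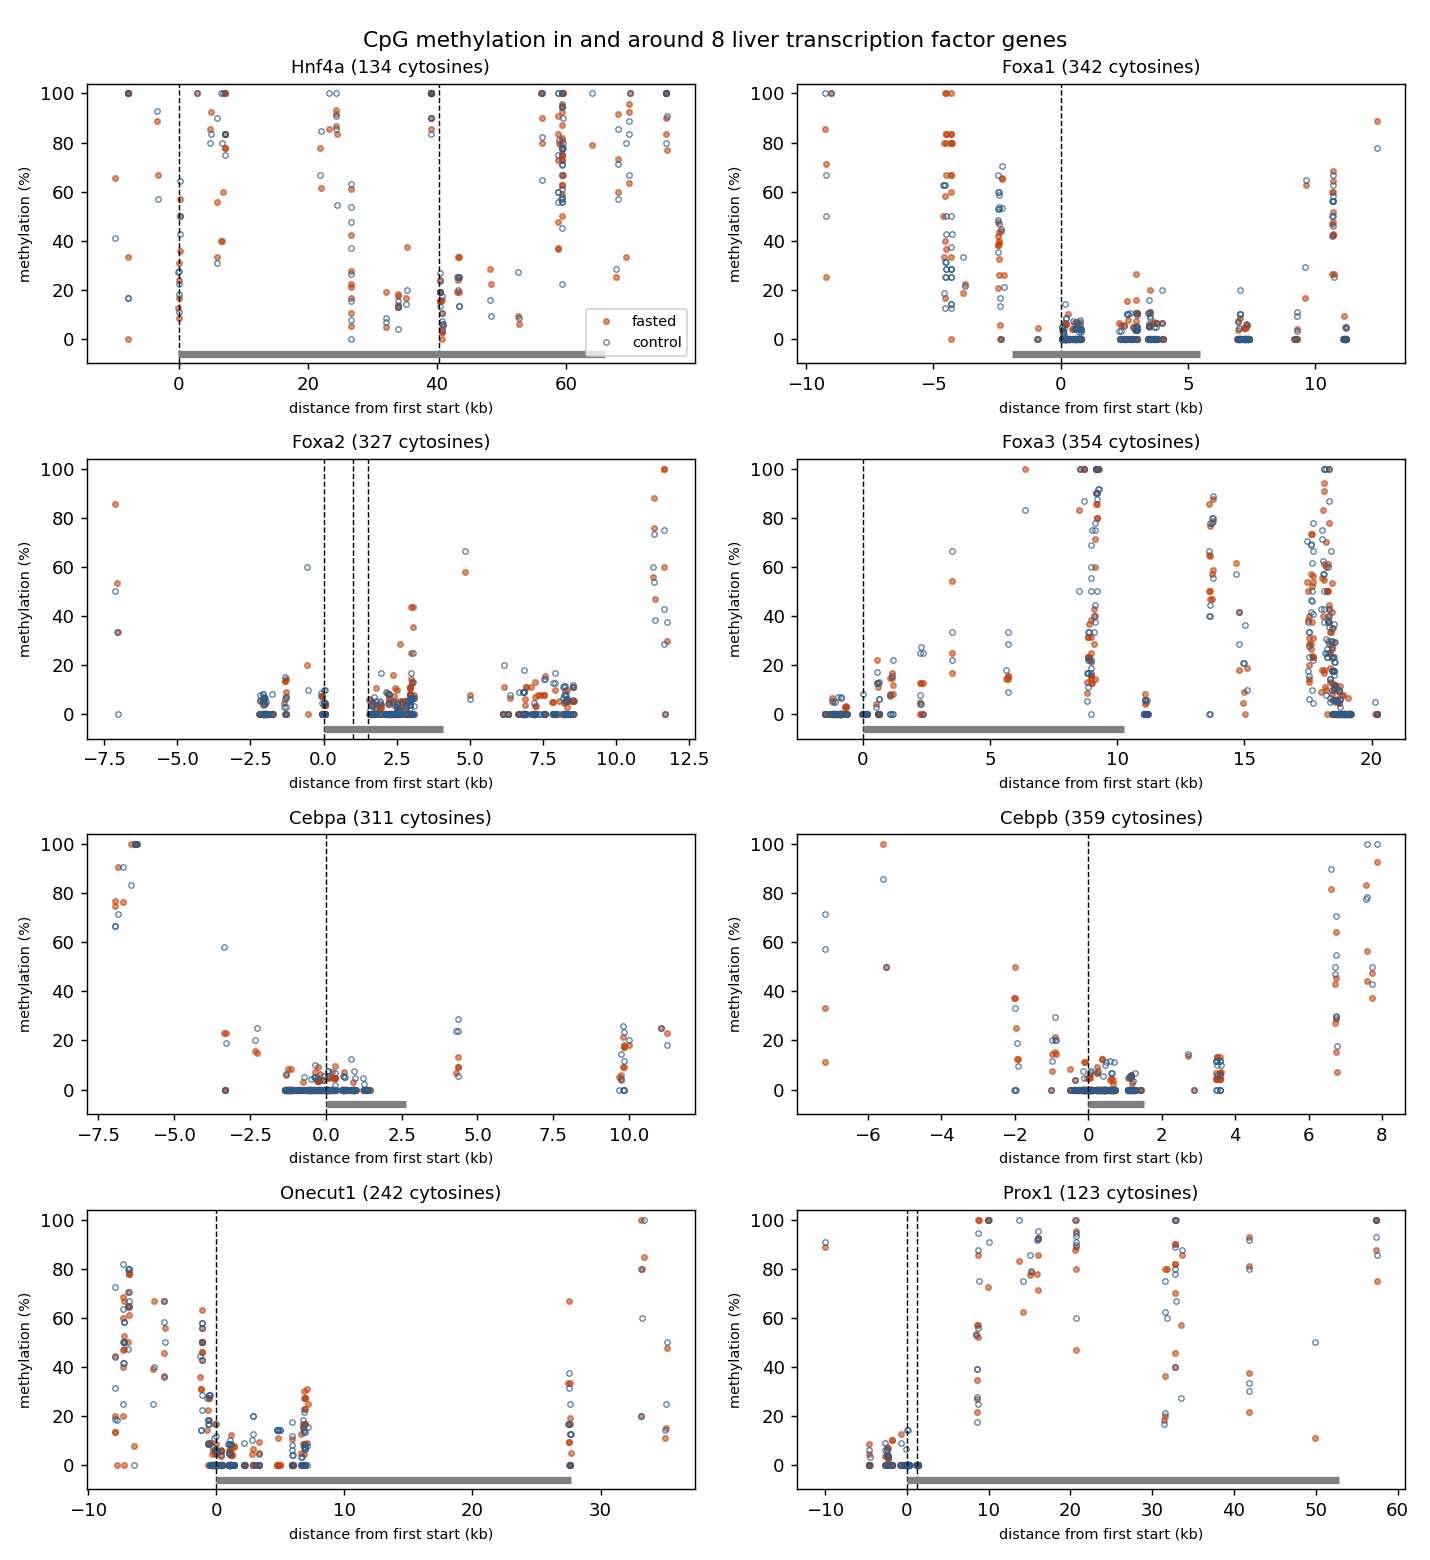
Methylation of each cytosine against distance from the first annotated start in kb, for the 8 genes, fasted (red, filled) and control (blue, open). Dashed lines mark annotated starts and the grey bar the gene span; 7 genes have a floor of near 0% around the start, whereas Hnf4a has low points around P1 and methylated cytosines among them.

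Across the 8 genes 80.5% of cytosines were below 20% and 5.38% above 80% in the mean of both libraries, against 45% and 35.2% of all autosomal cytosines. Hnf4a departed most from this, with 22.4% below 20% and 39.6% above 80%, followed by Prox1, with 58.5% below 20% and 23.6% above 80%. There were 24 low stretches, of which Hnf4a held 1, and 7 high stretches, of which it held 4. In order of level over span and flanks the fasted library ran from Cebpb at 3.83% through Cebpa, Foxa2, Foxa1, Onecut1, Foxa3 and Prox1 to Hnf4a at 59.0%, and the control library gave the same order except that Cebpb, Foxa2 and Cebpa, at 4.19, 4.29 and 4.37%, lay close together. Of autosomal protein-coding genes 1.32% had a lower mean level than Cebpb and 72.6% a lower one than Hnf4a.

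The difference per gene was small at all 8 genes. It ran from -1.25 points at Prox1 and -1.03 at Foxa3 to 0.936 at Foxa2 and 1.19 at Foxa1, with -0.596 at Hnf4a, -0.367 at Cebpb, -0.133 at Onecut1 and -0.0130 at Cebpa. Among 14872 protein-coding genes the median was -0.00452 points, and 90% lay between -3.87 and 4.16. None of the 8 was called at an adjusted p under 0.05 in Fisher's exact test and 5 points, where 1.98% of all genes were. The sign of these differences is not firm for 7 of the 8 genes, since another coverage minimum, flank or weighting turned it. That of Foxa2 stayed positive in all 8 alternatives, between 0.220 and 1.18 points. Its pass of the test was lost in 3 of the alternatives that gave a test. Foxa1 passed on adjusted p with flanks of 5000 bp (1.54 points) and 20000 bp (0.847 points), under the required 5 points in both.

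**Figure D5:**
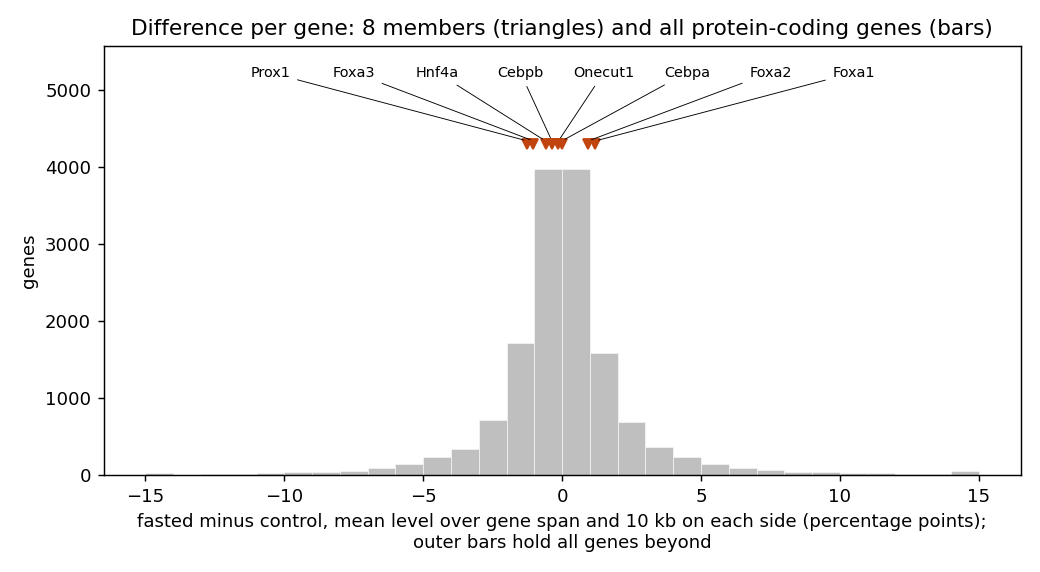
Number of protein-coding genes (bars) by the difference of mean methylation over the gene span and 10 kb on each side, fasted minus control, in percentage points, with the 8 members as triangles above. All 8 lie between -1.25 and 1.19 points, inside the bulk of 14872 genes.

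No single cytosine of the 2192 was called at an adjusted p under 0.05 and 25 points in Fisher's exact test, against 0.0548% of all autosomal cytosines. At an unadjusted p under 0.05 there were 27, or 1.23%, of which 8 lay at Foxa3, 7 at Foxa1 and 0 at Onecut1, against 1.85% of all autosomal cytosines. A difference of at least 25 points without a test was seen at 89 cytosines, 49 higher and 40 lower, or 4.06% against 7.41% of all. The shares were closer at matched levels: among the 310 with a mean level of 20 to 80%, 23.9% differed by 25 points, against 26.6% of 487687 such cytosines in the autosomes. Their mean absolute difference was 17.8 points at the 8 genes and 18.1 points over all.

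The strands of a CpG give a measure of scatter within a library. At 840 CpGs of the 8 genes with both strands read, the strands differed by a mean of 4.43 points within the fasted and 4.49 points within the control library. The libraries differed by 4.72 points on the plus strand and 4.42 points on the minus strand, about as much on average. This varied by gene. At Foxa1 the libraries differed by 7.7 points on the plus and 4.37 on the minus strand, against strand gaps of 5.2 (fasted) and 4.25 (control). At Hnf4a they differed by 7.48 points on the plus and 12.9 on the minus strand, against strand gaps of 10.6 (fasted) and 9.94 (control). On 51 of the 840 CpGs at least 1 strand differed by 25 points between the libraries. On 6 of them both strands did so in the same direction, and on 2 in opposite directions. Of the 6, 5 lay in the thinly read window at -4389 bp of Foxa1 and 1 at Foxa3, and of the 2, 1 lay in that same window and 1 at Foxa3.

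Of 35 other transcription factor genes of liver, 25 could be measured over span and flanks, and 0 were called higher and 1 lower, against 1.10% and 0.874% of all genes. The 1 called was Nr1h4, which encodes the bile acid receptor FXR. It stood at 55.7% in the fasted and 64.1% in the control library over 69 cytosines (adjusted p = 0.0266, Fisher's exact test). The next widest gaps were at Nr1i3, the receptor CAR, with 37.4% in the fasted and 44.1% in the control library (adjusted p = 0.529, Fisher's exact test), and at Nr1i2, the receptor PXR, with 53.6% in the fasted and 50.2% in the control library (adjusted p = 0.0162, under 5 points). The median difference of the 25 genes was -0.190 points. Their median level over span and flanks was also low, at 15.2% in the fasted and 17.3% in the control library. The 8 genes had medians of 11.9% in the fasted and 11.3% in the control library. Only the first listed start of each of these other factors was looked at, and 17 start regions were measured. They had a median of 0.740% in the fasted and 0.400% in the control library.

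Levels at marker genes do not measure expression and are given as a description, not as a check of the tissue. Only the first listed start of each marker gene was looked at. Of 14 hepatocyte marker genes, 3 had a measured start region: Apob at 10.3% in the fasted and 23.9% in the control library, Fgb at 18.0% in the fasted and 19.6% in the control library, and Ass1 at 0.402% in the fasted and 0.582% in the control library. Of 5 bile duct markers 2 were measured, at 12.5 to 32.0% in the fasted and 12.7 to 37.8% in the control library. Of 8 endothelial and stellate markers 3 were measured, at 1.35 to 12.9% in the fasted and 1.53 to 15.9% in the control library. None of 10 immune markers had a measured first start. Over span and flanks more markers were measured. The 11 hepatocyte markers ran from 14.5 to 56.8% in the fasted and 16.4 to 57.6% in the control library, with a median difference of -0.826 points. Among them Tdo2 stood at 48.6% in the fasted and 56.5% in the control library, and Alb at 53.1% in the fasted and 48.8% in the control library. The 3 bile duct markers ran from 53.1 to 68.8% in the fasted and 54.6 to 69.5% in the control library, and the 4 endothelial and stellate markers from 24.7 to 86.5% in the fasted and 25.7 to 86.8% in the control library. The 5 immune markers ran from 22.8 to 87.4% in the fasted and 22.2 to 87.3% in the control library, with Clec4f, a marker of Kupffer cells, at 74.5% in the fasted and 64.6% in the control library. Tdo2, Alb and Clec4f were picked after their values were seen. None of these marker regions was called, and the part of cell mixture in the values above was not tested.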

How the data were processed

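Liver DNA was cut with TaqαI and MspI, size selected on a gel, bisulfite converted and sequenced, per the labels' protocols. Bismark 0.14.3, bcl2fastq 1.8.4 and mm10 appear in the submitters' processing notes. How reads were trimmed or filtered, and how duplicates were treated, was not given in the sources used here. The deposited text field of each cytosine gives methylated reads, total reads and percent methylated. The deposited score column repeats that level on a scale to 1000, differing by at most 0.5 from the value computed from the reads, and was not used further. The fasted library held 51276705 and the control library 49253627 reads over cytosines, where a read counts once per cytosine. Median coverage over all listed cytosines was 9 reads in the fasted and 8 in the control library.

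Positions were counted from 1. Gene spans and starts came from RefSeq tables of GRCm38.p6. All 184 measured cytosines inside the members' promoter sequences fell on a CpG of the sequence. Fisher's exact tests (two-sided, Python 3.11.15, scipy 1.17.1 for intervals) were run on cytosines, 1000 bp windows (at least 3 cytosines) and gene regions (at least 5), adjusted by Benjamini-Hochberg over all autosomal features of a kind and checked on simulated reads. The simulated reads were drawn independently at each cytosine, so that check does not cover reads shared by neighbouring cytosines. Every listed start was a start region, and the first start set body and flanks. Reads summed over cytosines also move with where the reads fell. Intervals are exact Clopper-Pearson intervals. The 8 genes, lists and thresholds were chosen with earlier results of these data known, and the stretches, segments, motifs and CpG classes after seeing them. Named are all 8 genes, each call, per gene the 2 widest gaps in each direction at 10 or more reads, and of the other factors each call and the 3 widest gaps.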

Additional observations from a re-analysis of the deposited data

How the results depend on the processing

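No paired analysis was possible because each group has 1 library, and no replicate could be left out. The count of called cytosines was 0 under all 9 alternatives, but some of these could not raise it. No cytosine of the 8 genes passed on adjusted p, so a smaller or no minimum difference could add no call. Halved reads and equal depth lower power. The 2 called windows became 1 with at least 10 reads, with halved reads and with 20 points required, and 0 with at least 20 reads and when a window's reads were divided by its number of cytosines. In the last setting only 1 of 206284 windows was called anywhere, so it has little power. Called gene regions were 0, and 1 with at least 10 reads, the upstream flank of Foxa1. That was 1 of 31 regions of the 8 genes, against 1.41% of 36961 regions over all genes in that setting. No gene was called over span and flanks under the alternatives that gave a test. Differences per gene, fasted minus control, changed sign as follows. With at least 10 reads Hnf4a differed by 1.26, Foxa1 by -1.11 and Onecut1 by 0.339 points. With at least 20 reads Foxa1 differed by -1.57, Foxa3 by 0.927 and Onecut1 by 1.42 points. With each read weighted equally Hnf4a differed by 0.918, Cebpa by 0.157, Cebpb by 0.145, Onecut1 by 0.923 and Prox1 by 1.05 points. At equal depth Hnf4a differed by 0.218 points. With flanks of 5000 bp Cebpb differed by 0.299 and Onecut1 by 0.581 points, and with 20000 bp Cebpa by 0.205 and Prox1 by 0.647 points. The cause of these turns was not tested. Over all autosomes the 1352 called cytosines became 778 with at least 20 reads, 2380 with strands merged, 73 with halved reads and 723 at equal depth. The 2959 called windows became 895 with at least 20 reads, 502 with halved reads and 1665 with 20 points required. The 569 called regions became 243 with at least 20 reads, 169 with halved reads, 1 with divided reads and 1104 with 5 points required, and the 294 called genes became 119 at equal depth. The 7 high stretches became 2 with limits of 10 and 90% and with at least 10 reads. Every cytosine of the 8 genes had an adjusted p of 1.0, and of the 543 with at least 20 reads 0 were called.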

Other observations

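Some cytosines of the 8 genes had at least 5 reads in 1 library only and enter no comparison. Cytosines with such coverage in the fasted library alone numbered 31 at Onecut1, 28 at Foxa3, 21 at Hnf4a, 20 at Prox1, 20 at Cebpb, 18 at Foxa2, 4 at Foxa1 and 2 at Cebpa. Those with such coverage in the control library alone numbered 34 at Prox1, 23 at Foxa1, 14 at Onecut1, 11 at Hnf4a, 11 at Foxa3, 6 at Cebpa, 5 at Foxa2 and 0 at Cebpb.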
